A study of Bombyx mori with 12 samples.

Results

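The larval brain of the silkworm Bombyx mori was set against 6 other larval tissues, namely midgut, salivary gland, Malpighian tubule, prothoracic gland, fat body and epidermis. These are 7 of the 12 arrays of the series, chosen as all single arrays of day 2 of the 4th instar. The other 5 arrays, 3 of the gland complex CC-CA (corpora cardiaca with corpora allata) and 1 each of testis and ovary, enter only as yardsticks. The study profiled the gland that makes juvenile hormone beside other tissues on a custom 1-colour Agilent oligonucleotide array.

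All 7 tissues came from larvae of the commercial hybrid Kinsyu x Showa, reared on mulberry leaves at 25 °C. No treatment or transgene was involved. Total RNA (200 ng) was amplified linearly and labelled with Cy3. Each of the 7 tissues had 1 array, so there were no replicates, no test could be run, and every difference below is a description of these arrays. The labels do not say how many larvae a sample pooled, nor whether the brain was freed of attached glands and nerves.

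Levels are log2 processed signals minus the 75th percentile of the array, so 0 is a bright probe and negative values are common. A signal that the scanner software did not mark as well above background is called dim, and enters a fold as a floor, which makes the fold a bound ("at least"). The lead of brain is its level minus that of the highest of the 6 other tissues. Brain led a probe where the probe was well above background in brain and the lead was at least 4-fold, which is 2 on the log2 scale. Levels are compared between tissues for the same probe only.

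Neuropeptides are made as precursors, cut into short active peptides and released from neurons or from neurosecretory cells, many of whose cell bodies lie in the insect brain. The corpora cardiaca and corpora allata, joined to the brain by nerves, store and release many of them into the blood. There they act as hormones on moulting glands, gut, muscle, heart and Malpighian tubules, mostly through G protein-coupled receptors. Several, such as neuropeptide F (NPF) and the allatostatins, are also made by endocrine cells of the midgut.

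The label was checked against 3 marker genes of brain, which earlier results of these data had named, and the data did not go against it. Eclosion hormone (EH), which triggers the behaviour that sheds the old cuticle, had a level of 3.53 in brain, against -7.98 in prothoracic gland, -7.05 in fat body, -8.12 in midgut, -7.66 in epidermis, -8.49 in Malpighian tubule and -8.55 in salivary gland. Corazonin, a neurosecretory peptide related to adipokinetic hormone, had a level of 3.22 in brain and lay between -8.33 and -6.84 in the 6 other tissues. Sulfakinin, a relative of vertebrate cholecystokinin that curbs feeding, had a level of -0.43 in brain and between -8.51 and -5.62 elsewhere. All 3 were dim in all 6 other tissues, and the lead of brain was at least 714-fold for EH, at least 578-fold for corazonin and at least 36.6-fold for sulfakinin.

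Of 11 marker genes of other tissues named on the array, 5 were well above background in brain, beside 79.4% of all sequences compared. AKH1 and AKH2, the adipokinetic hormones made in the corpora cardiaca, had levels of -4.42 and -3.16 in brain, against 5.30 ± 0.11 and 5.30 ± 0.33 in the CC-CA of the same day (SD, n = 2). Jhamt, the methyltransferase of juvenile hormone synthesis, and the bursicon partner pburs were dim in brain, at -7.81 and -7.91, against 1.53 ± 0.47 and 2.56 ± 0.16 in the CC-CA (SD, n = 2). AKHR had a level of -5.58 in brain against -0.23 in fat body, DHR -2.21 against 4.66 in Malpighian tubule, and jhbp-brp1649 -4.76 against 3.94 in salivary gland. In brain, AKHR was well above background by 1 of its 4 probes and jhbp-brp1649 by 2 of its 4. The epidermal BmorCPR40 and BmorCPG13, the salivary BmorCPR33 and the midgut gene JHEH4 were dim in brain. The smallest of the 11 folds of the marked tissue over brain was 40.8, for AKHR. These markers too were chosen with earlier results of these data known, so the folds are no independent check on the dissection. In whole tissue, fewer cells of a type and less RNA per cell cannot be told apart. Neuronal, glial and muscle markers such as elav and repo were not matched by name and were not analysed here. The same holds for prothoracic gland markers such as phantom and for the fat body storage proteins and vitellogenin. No marker of prothoracic gland is thus among the 11.

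Of 34826 probes well above background on at least 1 of the 7 arrays, 28243 (81.1%) were so in brain. Brain led 1100 probes (3.16% of those compared), which belong to 864 sequences. By the same rule fat body led 1430, epidermis 1401, midgut 704, salivary gland 516, Malpighian tubule 400 and prothoracic gland 191 probes. Brain therefore stood among the 3 tissues with the most led probes. For scale, the 2 CC-CA arrays of the same day, the only replicated tissue, lay at least 4-fold apart on 477 of 30848 probes (1.55%), with a median absolute difference of 0.36 on the log2 scale.

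The leads of brain were often large. Their median was 3.63 and their highest value 12.85 on the log2 scale, with 693 probes at 8-fold or more and 337 at 32-fold or more. In 451 of the 1100 (41.0%), no other tissue of the 6 was well above background. The lead was a bound for 476 probes, and no led probe was saturated in brain. Fat body was next highest for 536 probes, but for 462 of these fat body, the dimmest array of the 7, was itself dim, so that its value was a bound. Epidermis was next highest for 197, midgut for 132, prothoracic gland for 122, Malpighian tubule for 76 and salivary gland for 37. The threshold cut through a continuum, with 61 probes just inside it (log2 lead of 2.0 to 2.1) and 68 just outside (1.9 to 2.0).

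The reverse pattern was less frequent. On 175 probes (0.502%), all 6 other tissues were well above background and brain lay at least 4-fold below the lowest of them. Brain was dim on 72 of these 175 probes. By the representative probe of each sequence, 124 sequences (0.48%) were of this kind.

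**Figure D1:**
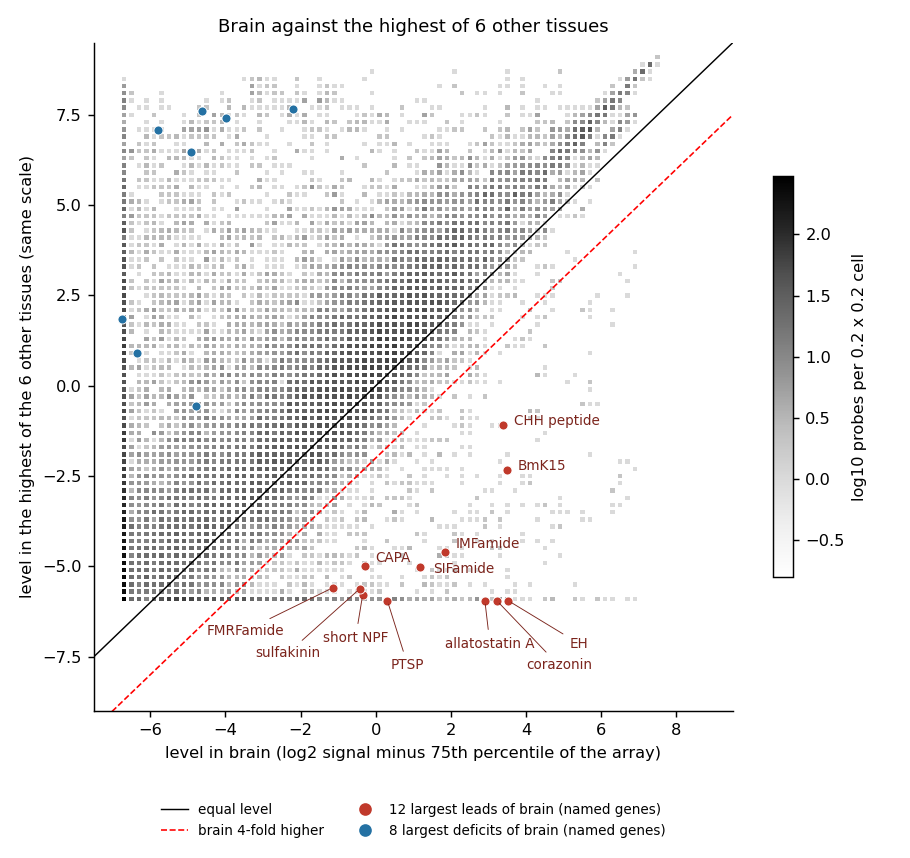
Level of each probe in brain (x axis) against its level in the highest of the 6 other tissues (y axis), both as log2 signal minus the 75th percentile of the array, with grey cells shaded by the number of probes. Dim signals stand at the floor of their array or at their own signal where that is higher, and the floors give the straight edges at the left and bottom; EH, corazonin and allatostatin A lie farthest to the right of the 4-fold line among named genes, on the bottom edge where every other tissue was dim.

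Brain was most like the prothoracic gland and least like the epidermis. Over the probes compared, the Pearson correlation of levels with brain was 0.850 for prothoracic gland, 0.792 for salivary gland, 0.790 for Malpighian tubule, 0.755 for fat body, 0.740 for midgut and 0.723 for epidermis. Probes are not independent, the arrays share one probe set, and these values carry no test. Prothoracic gland and fat body lay on the same slide as brain, whereas midgut and salivary gland lay on a second slide and epidermis and Malpighian tubule on a further slide. For these 4 tissues the slide and the tissue cannot be told apart. Against prothoracic gland and fat body only, brain led 1817 probes.

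Pair by pair, 3086 probes (10.3%) were at least 4-fold higher in brain than in prothoracic gland and 1729 (5.77%) lower. Quantile normalization gave 2673 higher and 2295 lower, and the deposited values of the authors gave 2229 higher and 3208 lower. Against fat body, 2938 probes (9.77%) were higher in brain and 4283 (14.2%) lower, and 1548 and 3714 after normexp background correction. Against midgut, 4063 (13.2%) were higher in brain and 3829 (12.4%) lower, but 3846 and 3908 after quantile normalization, 2416 and 3154 after normexp, and 3615 and 4381 in the authors' deposited values. Against epidermis, 3202 (10.1%) were higher in brain and 4193 (13.3%) lower. Against Malpighian tubule, 4284 (13.8%) were higher in brain and 3314 (10.7%) lower, but 3310 higher and 5074 lower in the authors' deposited values. Against salivary gland, 4564 (15%) were higher in brain and 3041 (9.97%) lower, 6105 and 2021 when scaled on the probes bright on all 7 arrays, 3397 and 3836 after quantile normalization, and 2633 and 7417 in the authors' deposited values. Which direction had more probes thus changed with the scaling or background correction for prothoracic gland, midgut, Malpighian tubule and salivary gland.

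**Figure D2:**
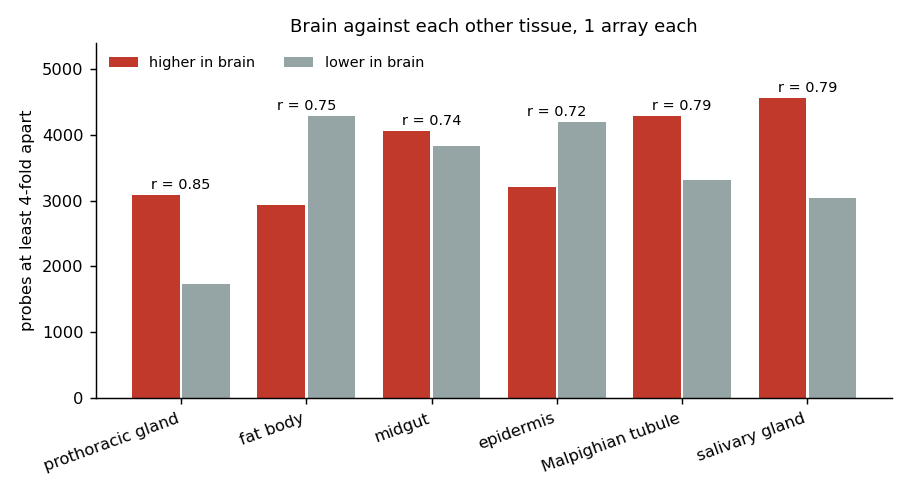
Number of probes at least 4-fold higher (red) or lower (grey) in brain than in each other tissue (x axis), 1 array each, with the Pearson correlation r over probes above the bars. Prothoracic gland has the fewest probes apart from brain, 3086 and 1729, and salivary gland the most that are higher in brain, 4564.

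The neuropeptide and hormone genes were mostly highest in brain. Of 39 such genes on the array, 30 were compared, and all 30 were well above background in brain. Brain led 19 of the 30 (63.3%) and was the highest tissue for 25. Over all 25848 sequences compared, each by its representative probe, 79.4% were well above background in brain, brain led 3.28% and was highest, with a signal well above background, for 19.5%. The median lead over the 30 peptide genes compared was 3.40 on the log2 scale, against -1.25 over all sequences. Of the 30, 11 passed the filter through brain alone, beside 735 of the 25848 sequences. For these 11 a high rank of brain was largely set by the filter. All 9 genes left out were dim in all 7 tissues. Midgut was well above background for 12 of the 30, prothoracic gland and epidermis for 6, fat body and Malpighian tubule for 5 and salivary gland for 4.

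Among peptides that act on moulting and on the glands of moulting and metamorphosis, EH and corazonin had the largest leads. Prothoracicostatic peptide (PTSP), which inhibits ecdysteroid synthesis by the prothoracic gland, had a level of 0.31 in brain, against -7.84 in prothoracic gland, -6.91 in fat body, -7.99 in midgut, -8.05 in epidermis, -8.40 in Malpighian tubule and -8.39 in salivary gland. All 6 were dim, and the lead of brain was at least 76.7-fold. FMRFamide, whose Bombyx peptides also inhibit the prothoracic gland, had a level of -1.15 in brain and -5.60 in epidermis, a lead of 21.8-fold, and was dim in the other 5 tissues. Myosuppressin, which lowers muscle contraction and likewise acts on the prothoracic gland of Bombyx, had a high level of 2.96 in brain, but 1.13 in midgut and -4.05 in prothoracic gland, a lead of 3.55-fold. On the log2 scale this was 1.83, under the threshold, but 2.09 when scaled on the probes bright on all 7 arrays and 2.49 after quantile normalization, both past it. Crustacean cardioactive peptide (CCAP), which takes part in ecdysis, had a level of -4.02 in brain and was dim elsewhere; its lead was at least 2.94-fold by the representative probe, while its other probe lay past 4-fold (2.24 on the log2 scale).

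The allatostatins are named for the inhibition of juvenile hormone synthesis, type A in cockroaches and type C in moths. The pair differed in where they were highest. Allatostatin A had a level of 2.90 in brain, against -7.85 in prothoracic gland, -6.92 in fat body, -8.00 in midgut, -8.02 in epidermis, -8.36 in Malpighian tubule and -8.41 in salivary gland. It was dim in all 6, midgut included, and led by at least 463-fold. Allatostatin C had a level of -0.11 in brain and 1.43 in midgut, and was dim in the other 5 tissues, which put brain 1.55 below midgut on the log2 scale. Allatotropin, the stimulator of juvenile hormone synthesis, was dim in brain and in all 6 other tissues.

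SIFamide, made by a few brain neurons in flies, had a level of 1.19 in brain and -5.03 in prothoracic gland and was dim in the other 5, a lead of 74.1-fold. Short NPF had a level of -0.35 in brain against a highest dim value of -5.79 in midgut, a lead of at least 43.4-fold. NPF2 had a level of -2.37 in brain and -5.04 in salivary gland, a lead of 6.36-fold; on the log2 scale this was 2.67, but 1.87 after quantile normalization, 1.87 after normexp and 1.63 in the authors' deposited values, all under the threshold. NPF1 had a level of 0.24 in brain and 2.14 in midgut and was dim in the other 5, so brain lay 1.90 below midgut on the log2 scale. Short NPF and NPF1 thus had different highest tissues.

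CCHamide, known from both brain and gut, had levels of -4.55 in brain and -4.31 in midgut, a gap of 0.24 that is under the median difference of 0.36 between the CC-CA replicates and turned to a lead of 0.02 for brain when scaled on the probes bright on all 7 arrays. Tachykinin was barely above background in brain at -5.22 and dim elsewhere, with only 1 of its 2 probes well above background in brain; its log2 lead of 0.03 was below 0 after normexp, quantile normalization and in the authors' deposited values. Calcitonin-like peptide, an insect diuretic peptide, had a level of 0.38 in brain and -1.44 in midgut and was dim in the other 5, a lead of 3.53-fold (1.82 on the log2 scale, and 2.08, past the threshold, when scaled on the probes bright on all 7 arrays). Orcokinin, a peptide family first found in crustaceans, was the only peptide led by brain that was well above background in all 7 tissues. Its level was -0.12 in brain, against -3.70 in prothoracic gland, -4.47 in fat body, -3.27 in midgut, -4.15 in epidermis, -4.73 in Malpighian tubule and -5.20 in salivary gland, a lead of 8.91-fold.

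CAPA, the precursor of periviscerokinins, had a level of -0.29 in brain and -4.98 in midgut and was dim in the other 5, a lead of 25.7-fold. The CHH peptide, of the family of crustacean hyperglycaemic hormone and insect ion transport peptide, had a level of 3.38 in brain. Its levels were -5.49 in prothoracic gland, -7.00 in fat body, -2.99 in midgut, -2.53 in epidermis, -3.31 in Malpighian tubule and -1.08 in salivary gland, a lead of 22.0-fold over salivary gland. It was dim in fat body alone. Kinin, which drives fluid secretion and gut contraction, had a level of -1.55 in brain and -5.13 in midgut and was dim in the other 5, a lead of 11.9-fold.

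Diuretic hormone, which stimulates fluid secretion by Malpighian tubules, was measured in 4 transcript regions with 2 probes each, and the regions differed. In all 4, the Malpighian tubule was next to brain. The region common to the transcripts had levels of 1.95 and 1.78 in brain and -2.26 and -2.38 in Malpighian tubule, leads of 18.5-fold and 18.0-fold. The region specific to form 1 had levels of 1.03 and 1.16 in brain against -3.35 and -3.24 in Malpighian tubule, leads of 20.8-fold and 21.1-fold. The region specific to form 2 had levels of 1.40 and 1.27 in brain against -2.33 and -2.40 in Malpighian tubule, leads of 13.3-fold and 12.8-fold. The region specific to form 3 had levels of -2.03 and -2.08 in brain against -2.29 and -2.33 in Malpighian tubule, leads of 1.20-fold and 1.19-fold. For form 3, brain and Malpighian tubule thus lay closer than the CC-CA replicates did at the median probe. Midgut was well above background for the common region and for form 2 only.

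**Figure D3:**
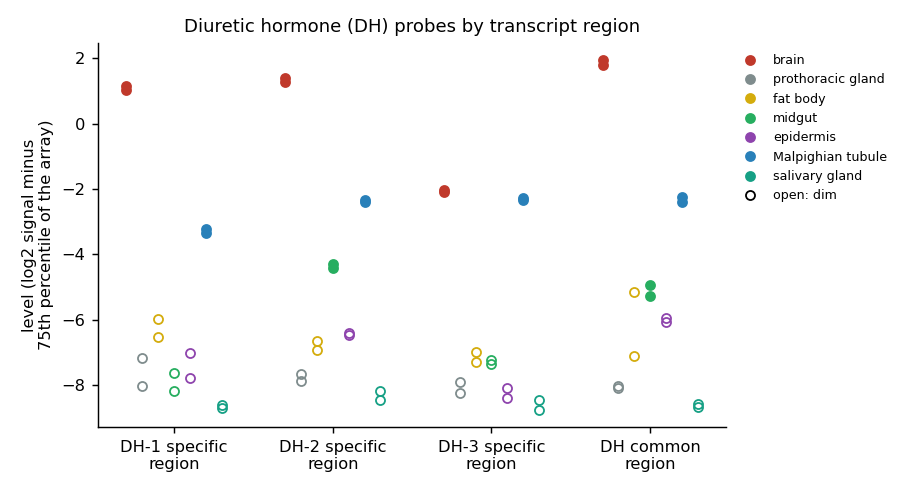
Levels of the 8 diuretic hormone probes (y axis, log2 signal minus the 75th percentile of the array) in 7 tissues, grouped by transcript region (x axis), each point 1 probe on 1 array, open where dim. Brain lies above Malpighian tubule by 12.8-fold to 21.1-fold in 3 regions and by 1.20-fold and 1.19-fold in the region specific to form 3.

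Of the remaining peptides led by brain, IMFamide had a level of 1.84 in brain and -4.60 in fat body, a lead of 87.1-fold, while its other probe was dim in all 6 other tissues. ITG-containing peptide had a level of 2.25 in brain and -0.97 in epidermis, with fat body at -4.51 and midgut at -4.44, a lead of 9.30-fold. IDL-like peptide had a level of -1.94 in brain and was dim in the 6 others, a lead of at least 16.1-fold. NPLP1, a precursor named as neuropeptide-like, had a level of -2.19 in brain and a lead of at least 13.1-fold. AKH2 led by at least 6.41-fold, with its level in the CC-CA far above that in brain as given above, and the part of adhering CC-CA tissue in this was not tested. IDL-like peptide, NPLP1 and AKH2 were under 4-fold after normexp, at 1.88, 1.66 and 0.91 on the log2 scale.

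The weak members complete the list. AKH1 lay 2.23-fold above epidermis, and polycistronic peptide, seen by 1 of its 2 probes, at least 2.43-fold above the 6 others, both under the threshold and both turned to the other side after normexp, at -0.08 and -0.27 on the log2 scale. Pigment-dispersing factor (PDF), an output peptide of the circadian clock in flies, had levels of -4.68 in brain, -4.22 in fat body and -5.92 in prothoracic gland. NPLP4-like peptide was bright everywhere, at 1.71 in brain, 2.26 in prothoracic gland, 2.33 in fat body, 1.18 in midgut, 1.42 in epidermis, 1.24 in Malpighian tubule and 0.16 in salivary gland. The 9 genes dim in all 7 tissues were AKH3, allatotropin, bursicon, pburs, ecdysis-triggering hormone (ETH), GPA-alpha, GPA-beta, neuroparsin and NPLP3-like peptide. Prothoracicotropic hormone and bombyxin were not matched by name and were not analysed here.

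**Figure D4:**
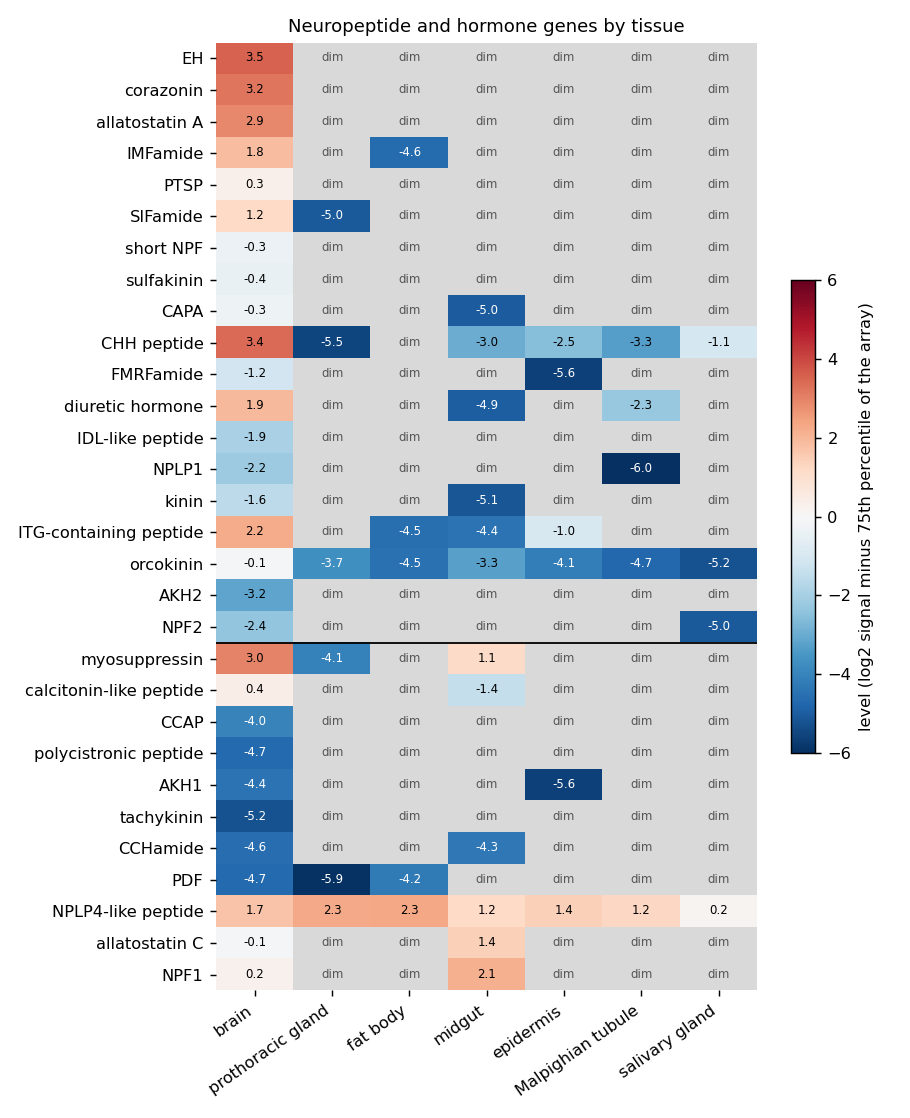
Levels (log2 signal minus the 75th percentile of the array) of the 30 neuropeptide and hormone genes well above background in at least 1 tissue, in 7 tissues with brain at the left, ordered by the lead of brain; grey cells are dim, and colours are to be compared along a row. The 19 genes above the black line are led by brain by at least 4-fold, and midgut holds the highest level of NPF1, allatostatin C and CCHamide.

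The highest levels of the receptors were spread over the 7 tissues. Of 52 receptor genes on the array, 39 were well above background somewhere. Of these, 24 were so in brain, beside 79.4% of all sequences. Midgut also had 24, epidermis 25 and the remaining tissues fewer. Brain was highest for 8, a share near the 19.5% of all sequences, and led 1 (2.56% of those compared, beside 3.28% of all sequences). Fat body was highest for 10, midgut for 8, Malpighian tubule for 5, epidermis and salivary gland for 3 each and prothoracic gland for 2. The median lead was -2.12 on the log2 scale, against -1.25 for all sequences.

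The receptor led by brain was BNGR-A8, a G protein-coupled receptor of the Bombyx neuropeptide receptor set. Its level was -1.74 in brain and -4.88 in midgut, and it was dim in the other 5, a lead of 8.85-fold. Of its 4 probes, 3 passed the threshold and 1 had a log2 lead of 1.18. BNGR-A29, BNGR-A7, BNGR-A24 and BNGR-A30 were well above background in brain alone, at -4.41, -4.42, -4.73 and -5.28, with leads of at least 2.91-fold, 2.89-fold, 2.33-fold and 1.60-fold, and not by all of their probes. After normexp none of these 4 was highest in brain, with log2 differences of -0.32, -0.37, -0.11 and -0.75. BNGR-A10, the short NPF receptor, had levels of 1.72 in brain and 1.44 in Malpighian tubule, but its other probes disagreed and the median over its probes gave a lead of -3.16 on the log2 scale. BNGR-A17 and BNGR-A23 exceeded the next tissue by 1.16-fold and 1.06-fold, margins that were lost under other settings: -0.10 for BNGR-A17 after normexp, and -0.28 and -0.42 for BNGR-A23 after quantile normalization and in the authors' deposited values, on the log2 scale.

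For several of these peptides, the receptor was highest in another tissue. This was the common case, since brain was highest for 8 of the 39 receptors compared and for 19.5% of all sequences. The receptors named here were picked after their values were seen. BRFaR, the FMRFamide receptor, was dim in brain at -5.68 and had a level of -2.02 in epidermis. SIFR, the SIFamide receptor, was dim in brain at -8.08 and had levels of -3.24 in fat body and -3.62 in midgut by its representative probe. The log2 leads of brain for the 4 probes of SIFR ran from -3.52 to -0.81. BMSR, the myosuppressin receptor, had a level of -3.76 in brain against -0.19 in prothoracic gland, and DHR, the diuretic hormone receptor, had the level in Malpighian tubule given above, 117-fold over brain. BAR, the allatostatin A receptor, had levels of -3.74 in brain and -2.97 in salivary gland by its representative probe, but its 4 probes disagreed, with log2 leads of brain between -0.77 and 0.21. The corazonin receptor BNGR-A21 was dim in all 7 tissues.

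Apart from the gene lists, 8 named genes were compared. Brain was highest for 3 of them, the ones given here, and led 2. The median lead over the 8 was -1.30 on the log2 scale, against -1.25 over all sequences. The 3 included a pair of proneural genes, which in flies encode transcription factors that set up neural precursors. Ase had a level of -1.94 in brain and was dim in all 6 other tissues, a lead of at least 16.1-fold, with all 4 of its probes past the threshold; after normexp its lead was 1.77 on the log2 scale. Ash1 had levels of -2.56 in brain, -3.93 in midgut and -4.99 in prothoracic gland, a lead of 2.57-fold. BmK15, for which no role is given here, had a level of 3.49 in brain, -2.35 in epidermis and -3.61 in midgut, a lead of 57.0-fold.

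Cuticular proteins, the structural proteins of the exoskeleton, were mostly dim in brain, and likewise in every other tissue but epidermis. Of 220 on the array, 141 were well above background somewhere. Of these, 54 were so in brain, beside 79.4% of all sequences, and 104 in epidermis. Fat body and salivary gland had 51 each, prothoracic gland 50, midgut 34 and Malpighian tubule 31. Epidermis was highest for 86, fat body for 17, salivary gland for 12 and brain for 8, where brain was highest for 19.5% of all sequences. Of the 141, 5 passed the filter through brain alone, beside 735 of all 25848 sequences. For these 5 a high rank of brain was largely set by the filter. The median lead of brain was -4.30 on the log2 scale. Brain led 4 (2.84%, beside 3.28% of all sequences). BmorCPR18 had a level of -1.59 in brain and was dim in all 6 others, a lead of at least 20.5-fold by the representative probe and of 4.31 on the log2 scale by the other. BmorCPH31 led epidermis by 5.30-fold, and BmorCPR131 and BmorCPR78 led by at least 4.53-fold and 4.19-fold, BmorCPR131 by 1 of its 2 probes only; after normexp these 3 leads were 0.87, 0.47 and 0.44 on the log2 scale. BmorCPR72 was 3.65-fold above epidermis (1.87 on the log2 scale, and 2.05 when scaled on the probes bright on all 7 arrays), and BmorCPR24, BmorCPR130 and BmorCPH32 were highest in brain by 1.50-fold, 1.27-fold and 1.21-fold, the first 2 as bounds; after normexp BmorCPR24 and BmorCPR130 were no longer highest in brain, at -0.53 and -0.49 on the log2 scale, and BmorCPR130 was at -0.07 in the authors' deposited values.

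The 8 named genes farthest below the median of the 6 other tissues were picked among genes well above background in most of those tissues. Of these 8, 7 were cuticular proteins. Cuticular proteins make up 220 of the 343 named genes on the array, but their share among the genes that met this condition was not counted. The 8 were picked for a low level in brain. BmorCPR46 had levels of -2.21 in brain, 1.81 in prothoracic gland, 1.36 in fat body, 3.24 in midgut, 7.66 in epidermis, 1.05 in Malpighian tubule and -1.34 in salivary gland, so that all 6 exceeded brain. BmorCPR51 had a level of -4.78 in brain and between -2.48 and -0.57 in the 6 others, which again all exceeded brain. BmorCPR148, BmorCPR28 and BmorCPG17 were 2709.5-fold, 4783-fold and 2684-fold below epidermis, and BmorCPR27, dim in brain, at least 7630-fold. BmorCPR19, also dim in brain, was at least 154-fold below salivary gland.

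Genes of juvenile hormone synthesis, transport and breakdown had a median lead of brain of -2.57 on the log2 scale, against -1.25 over all sequences. Of 23 on the array, 21 were well above background somewhere and 11 were so in brain, beside 79.4% of all sequences. The other tissues were alike, with 11 in midgut, 12 each in fat body and Malpighian tubule, 14 each in prothoracic gland and epidermis and 15 in salivary gland. Brain was highest for 1, beside 19.5% of all sequences. Fat body was highest for 5, midgut, epidermis and salivary gland for 4 each, prothoracic gland for 3 and Malpighian tubule for 0. None was led by brain, but with 3.28% of all sequences led, a list of 21 would hold few led genes anyway. JHEH3, named as a juvenile hormone epoxide hydrolase, was the single member highest in brain, at -2.03 against -2.73 in midgut, 1.62-fold. JHE-r5AL, named after juvenile hormone esterase, was dim in brain at -7.49 and between -4.50 and 1.84 in the 6 other tissues, at least 389.9-fold below midgut. Kr-h1, a transcription factor induced by juvenile hormone, had a level of -2.86 in brain, below all 6 other tissues, which lay between -2.09 and -1.40.

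**Figure D5:**
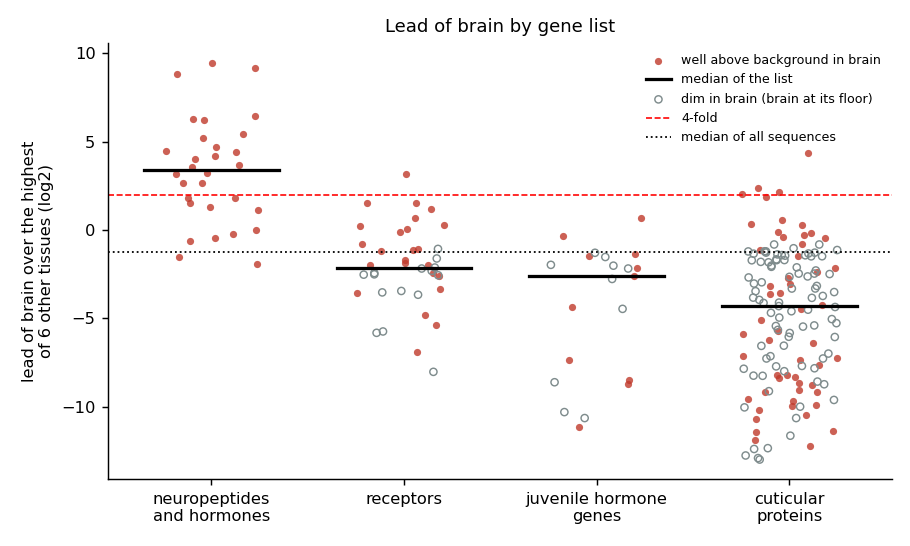
Lead of brain over the highest of the 6 other tissues (y axis, log2) for the genes of 4 lists (x axis), each point 1 gene, open where dim in brain, with the list's median as a bar, the 4-fold threshold dashed and the median of all sequences dotted. The peptide median stands at 3.40, above the threshold, whereas the medians of receptors (-2.12), juvenile hormone genes (-2.57) and cuticular proteins (-4.30) lie below that of all sequences (-1.25).

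Most led sequences carry no gene name in the array annotation. The largest lead belonged to a gene model whose name the annotation cuts short, BGIBMGA011928. Its level was 6.90 in brain, it was dim in all 6 other tissues, and its lead was at least 7399-fold. The second-largest was BGIBMGA014496, with a level of 6.73 in brain and -6.03 in Malpighian tubule, dim in the other 5, and a lead of at least 6586-fold. Both models also had close levels on the 2 CC-CA arrays of the same day, 4.07 and 4.15 for BGIBMGA011928 and 4.02 and 4.14 for BGIBMGA014496. Whether the 2 names stand for 1 transcript was not tested. On the opposite side, the clone fcaL-P47_pT_C12_RevCom was dim in brain at -6.49 and had a level of 4.77 in midgut, 4.49 in fat body, 3.99 in Malpighian tubule, 3.25 in prothoracic gland, -0.41 in salivary gland and -0.71 in epidermis, a difference of at least 2439-fold between midgut and brain. The gene model BGIBMGA008821 was dim in brain at -6.93 and well above background in all 6 other tissues, with 4.35 in midgut. Its levels of 4.24 in fat body and 3.65 in Malpighian tubule were also close to those of the clone. Whether the clone and this model stand for 1 transcript was not tested.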

How the data were processed

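Tissues were hybridised to 12 one-colour arrays on 3 slides of 4, and 7 arrays were compared. Per the file headers, Agilent Feature Extraction 9.5.3.1 gave spot intensity, combined 2 scans and subtracted the background; arrays were not scaled to each other in the deposited intensity. A deposited table of values holds this intensity over a constant for each array, from 22.2 to 171.6, whose meaning the sources used here do not give. It is on a linear scale with unknown centring, and its columns had medians of 7.11 (brain), 8.45 (prothoracic gland), 6.54 (fat body), 6.56 (midgut), 7.18 (epidermis), 7.91 (Malpighian tubules) and 9.18 (salivary gland).

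The log2 processed signal minus the 75th percentile over non-control spots was used, with outlier spots left out and spots of a probe averaged (42564 probes, 118 dropped for a missing value). The 75th percentile ran from 1402 in fat body to 4251 in brain, and the share of bright spots, those well above background, was lowest in fat body (60.4%) and highest in epidermis (69.4%). A dim signal was set to the higher of itself and the lowest signal well above background on its array. A gene is its probe with the highest mean over the 7 arrays. All 6 transcript accessions among the names were found in the RefSeq gene table. No column of per-sample values was left unmapped.

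Members and gene lists were chosen with earlier results of these data known. Named were the 3 brain markers, the 12 largest leads and 8 largest deficits of brain among named genes, peptides well above background in brain, the 8 receptors with the largest lead, members of the other lists highest in brain, and 2 unnamed sequences each way; markers of other tissues were also named, and the receptors of named peptides, the peptides dim throughout and Kr-h1 were added after their values were seen. R 4.3.3, with limma 3.58.1 and data.table version 1.17.8, gave the normexp alternative, offset 50, on median signals, because the files hold no mean signal; the rest used Python 3.11.15, numpy 2.4.6, pandas 2.3.3 and matplotlib 3.10.9. The counting step was tested on simulated data.

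Alternatives were other scalings, quantile normalization, normexp, the value table, thresholds of 2-fold and 8-fold, no floor, only probes bright on all 7 arrays, each tissue left out, and tissues of the same slide only. With 1 array per tissue, the number of arrays limits the precision.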

Additional observations from a re-analysis of the deposited data

How the results depend on the processing

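No paired analysis was possible because each tissue had 1 array. The count of probes led by brain (1100) was 722 after normexp, 2229 at 2-fold, 693 at 8-fold, 137 among probes bright on all 7 arrays and 1817 against prothoracic gland and fat body only. The count lowest in brain (175) was 96, 610, 56, 103 and 830 in those settings, and 300 without prothoracic gland. Counts higher in brain after normexp were 1913 (prothoracic gland), 1548 (fat body), 2416 (midgut), 1874 (epidermis), 2590 (Malpighian tubules) and 2929 (salivary gland). At 2-fold, in the same order of tissues, 5899, 7827, 8724, 7898, 7654 and 8492 were higher in brain and 5057, 7639, 7698, 7210, 7532 and 7188 lower. At 8-fold, 1863, 1500, 2120, 1519, 2606 and 2685 were higher, and 923, 2674, 2202, 1685 and 1384 lower, epidermis keeping within 1.5 times. Among probes bright on all 7 arrays, 699, 973, 1528, 1158, 1253 and 1548 were higher and 732, 2041, 1947, 1406, 1755 and 1880 lower. The value table gave 3208, 5074 and 7417 lower in brain than prothoracic gland, Malpighian tubule and salivary gland, and 2633 higher than salivary gland; scaling on bright probes gave 2021 lower than salivary gland. The share of probes apart between the CC-CA replicates (1.55%) was 0.807% after normexp, 6.47% at 2-fold, 0.762% at 8-fold and 0.154% among bright probes.

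The correlation of brain with prothoracic gland was 0.851 after quantile normalization, 0.869 after normexp and 0.887 among bright probes, and it ranked first in each; salivary gland and Malpighian tubule exchanged ranks 2 and 3 in these 3 settings. Peptides led by brain numbered 15 to 24 in 15 of 16 settings and 1 among bright probes, where 2 peptides were left. Receptors led numbered 4 at 2-fold, 3 without a floor, 3 without fat body, 3 without Malpighian tubule, 4 against the tissues of the same slide and 0 among bright probes. Cuticular proteins led numbered 1 after normexp, 1 at 8-fold, 0 among bright probes and 7 against the tissues of the same slide. No juvenile hormone gene was led in any of the 16, but the list is small, with 21 genes compared in the main setting. The causes of these shifts were not tested, except that fewer probes, fewer tissues or another fold enter by construction. Of 26 named genes led by brain, 18 stayed at 4-fold or more under all 6 scaling, floor and probe settings.

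Signal over background limits the leads over dim tissues: of 476 led probes with a bound, the dimmest array, fat body, set it for 462.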

Other observations

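The arrays outside the comparison carried some of the brain's peptides. Brain and the CC-CA of the same day had corazonin at 3.22 and at -2.03 and -2.07, short NPF at -0.35 and at -0.49 and -1.25, allatostatin A at 2.90 and at -4.70 and -4.69, and SIFamide at 1.19 and at -5.77 and -5.07 (2 CC-CA arrays). EH, IMFamide, PTSP and sulfakinin were dim on both of those CC-CA arrays. For short NPF, brain and the first CC-CA array differed by less than the 2 CC-CA arrays did. Kinin had a level of -1.55 in brain and 2.17 in testis, and CAPA -0.29 in brain and -1.10 in ovary. Bursicon was dim in brain and had a level of 0.72 in testis, and BmorCPH31 had -3.35 in brain and 2.12 in testis. Testis and ovary came from a later stage, day 10 of the 5th instar, so tissue and stage cannot be told apart there. BGIBMGA011928 and its level of 6.90 in brain stood beside 4.07 and 4.15 in the CC-CA of the same day.

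Of the 1095 probes led by brain that had a value on all 12 arrays, 576 were at least 4-fold above each of the 11 other arrays. Among the 1100 led probes, 739 and 795 were well above background on the 2 CC-CA arrays of the same day (67.2% and 72.3%, beside 83.8% and 87.7% of all probes compared), and 70 and 55 were higher there than in brain.

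The led probes were unevenly spread over the prefixes of the sequence names, which the sources used here do not explain. Of 380 probes named with the prefix fner, 66 (17.4%) were led by brain, beside 3.16% of all probes compared. The prefix MFB had 0 of 657, fprw 2 of 525 (0.381%) and fphe 4 of 623 (0.642%). The counts were made after the values were seen and carry no test.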
